A study of Mus musculus with 6 samples.

Results

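The CCR4-NOT complex is the main deadenylase of the cytoplasm, and it removes the poly(A) tails of mRNAs and so starts their silencing and decay. The 10 subunit genes described here, Cnot1, Cnot2, Cnot3, Cnot4, Cnot6, Cnot6l, Cnot7, Cnot8, Cnot10 and Cnot11, were taken by gene symbol from the 25353 genes of the deposited table, and all 10 were present. The libraries, 6 in all and made by Smart-Seq2, each hold the RNA of 5 pooled mouse oocytes at the germinal vesicle (GV) stage, in which growth is complete and meiosis is arrested in prophase. The groups were 3 libraries from wild-type (WT) C57BL/6J mice and 3 from C57BL/6J mice labelled knockout (KO). The design text gives both groups an age of 8 weeks, whereas the samples' own age entry is P1. The title and design text name Mfn2-/- and the genotype field Mfn1-/-, and no promoter, Cre line or allele design is given. Mfn2 had normalized read counts of 25.5, 38.1 and 32.3 in WT and 5.25, 5.28 and 4.50 in KO, and Mfn1 had 363, 298.5 and 360.1 in WT and 398, 382 and 379 in KO. Mfn2 fell by 2.44 on the log2 scale (SE 0.38, adjusted p = 0.00487 from the limma test described below) and Mfn1 did not pass (0.19, adjusted p = 0.482). KO here names the libraries so labelled, since the labels disagree on the gene.

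Between 6450191 and 7992598 reads per library were assigned to genes. Nothing in the labels ties a pool to its own mouse, so the p-values measure only the spread between these pools, which may be technical. The first principal component (28.9% of the variance) separated the groups, with WT at -44.4 to -26.0 and KO at 31.0 to 45.8. On the second (21.4%), KO replicate 1 stood apart from KO replicates 2 and 3 (-39.3 against 9.62 and 32.8). WT replicate 1 stood apart there from WT replicates 2 and 3 (49.3 against -31.3 and -21.0). All 12 oocyte markers examined were detected, at a summed level of 164710 to 194605 normalized counts in WT and 124941 to 169319 in KO. Markers of other ovarian cells were also detected. The 5 theca and stroma markers in the table summed to 26.8 to 82.1 in WT and 7.19 to 11.6 in KO. Col1a1 and Col1a2 were at 0 in every KO library, but in WT they too had few reads (1, 1 and 0, and 7, 0 and 0). The 4 immune markers in the table summed to 97.6 to 118 in WT and 31.5 to 43.3 in KO. Adgre1 and Cd74 were at 0 in every KO library, and in WT they had 0, 0 and 1, and 22, 0 and 11 reads. The 11 granulosa markers summed to 631 to 2627 in WT, with WT replicate 1 the highest (Hsd3b1 at 1269.8 and Cyp11a1 at 604 there), and 525 to 694 in KO. The 4 endothelial markers summed to 192 to 246 in WT and 168 to 256 in KO, with Pecam1 the highest of them (means of 164 and 172). Kdr had 11.1, 8.37 and 10.2 normalized counts in WT and 3.15, 2.11 and 2.70 in KO. Cdh5 was at 0 in every KO library, and in WT it had 1, 0 and 0 reads. The limma test described below called 1.41% of all genes as lower in KO. Of the 12 oocyte markers it called Nlrp5 alone, as lower (log2 fold change -0.80). Zp1, Zp2 and Zp3 did not pass, at -0.61, -0.66 and -0.67. In all, 8 of the 12 were below 0 and 4 above. All KO values lay below all WT values in 4 of the 12 (Zp1, Ooep, Nlrp5 and Dppa3), against 11.7% of all genes tested. None of the 12 was separate in the other direction. Of the markers of other cells the limma test called Cyp11a1, Dcn, Lhcgr and H2-Aa as lower (-4.17, -2.21, -2.84 and -1.42). The part of these other cells in the results below was not tested.

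In the complex, CNOT1 is the scaffold on which the other subunits assemble. Deadenylation is carried out by a CAF1-type nuclease, CNOT7 or CNOT8, and a CCR4-type nuclease, CNOT6 or CNOT6L, which are alternative paralogs in the same position. CNOT2 and CNOT3 form the NOT module at the C-terminal end of CNOT1, CNOT10 and CNOT11 bind its N-terminal end, and CNOT4 is a RING-type ubiquitin ligase that associates less tightly. The GV oocyte stores maternal mRNAs in a stable form, and in the mouse their deadenylation during meiotic maturation depends on CNOT6L and on BTG4, an adaptor that brings CNOT7 and CNOT8 to maternal mRNAs.

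The paralogous catalytic subunits are related in sequence, so their coding sequences were compared to see whether their reads could be confused. The coding sequences of Cnot7 and Cnot8 were 71.2% identical over 853 aligned bases, and those of Cnot6 and Cnot6l 73.3% over 1650. The longest identical run was 20 bases in each pair. The 75-base stretches that are most alike, which is the length of a sequencing read, are shown here from GENCODE M21 transcripts on GRCm38, 5′ to 3′ in the direction of the gene. Capitals mark the bases that differ between the members of a pair, and each stretch crosses an intron.
Cnot7 (chr8:40499433-40500819, minus strand, coding bases 406 to 480): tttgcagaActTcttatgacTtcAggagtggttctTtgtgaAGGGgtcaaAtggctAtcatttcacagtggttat
Cnot8 (chr11:58113146-58113956, plus strand, coding bases 406 to 480): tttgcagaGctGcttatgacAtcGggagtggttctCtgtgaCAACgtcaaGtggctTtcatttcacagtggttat
Cnot6 (chr11:49681280-49682097, minus strand, coding bases 814 to 888): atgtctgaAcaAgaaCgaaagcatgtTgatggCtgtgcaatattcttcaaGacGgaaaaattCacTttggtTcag
Cnot6l (chr5:96086278-96091642, minus strand, coding bases 814 to 888): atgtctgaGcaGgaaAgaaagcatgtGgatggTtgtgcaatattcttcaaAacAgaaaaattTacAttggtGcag
The first pair differs at 11 of 75 bases and the second at 10 of 75, and in neither pair did any stretch of this length differ by 1 base or less. Stretches nearly identical to another annotated gene were found in the longest transcripts of 3 members. Of 75-base windows of the longest transcript, 10.8% of those of Cnot1 matched Gm6158 or the antisense gene 4930513N10Rik with at most 1 mismatch, 11.1% of those of Cnot8 matched Gm18860, and 1.96% of those of Cnot7 matched Zdhhc2. The values of Cnot1 and Cnot8 are uncertain for this reason, and by how much was not tested. The longest transcripts of the other 7 had no shared window, but exons of Cnot3 and Cnot2 overlap genes on the other strand, as described with each.

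Of the 10 subunits, 1 changed between the groups. Cnot3 fell in KO, none rose, and the other 9 did not pass the test. The test was limma on log2(normalized count + 1), adjusted by the Benjamini-Hochberg method over all 18762 genes tested, with a threshold of 0.05. By the same test 3.28% of all genes were called, 1.41% as lower. On the reads recovered from the table, edgeR called 6.03% of genes (3.45% higher, 2.58% lower) and DESeq2 7.79% (4.17% higher, 3.61% lower), and each called Cnot3 alone of the 10. The median log2 fold change of the 10 subunits was -0.05, against -0.01 over all genes tested, with 4 subunits above 0 and 6 below. All 10 passed the filter on low values. Groups were fully separate in 3 of the 10 (Cnot6 higher, Cnot3 and Cnot10 lower), against 23.2% of all genes tested (11.5% higher, 11.7% lower).

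**Figure D1:**
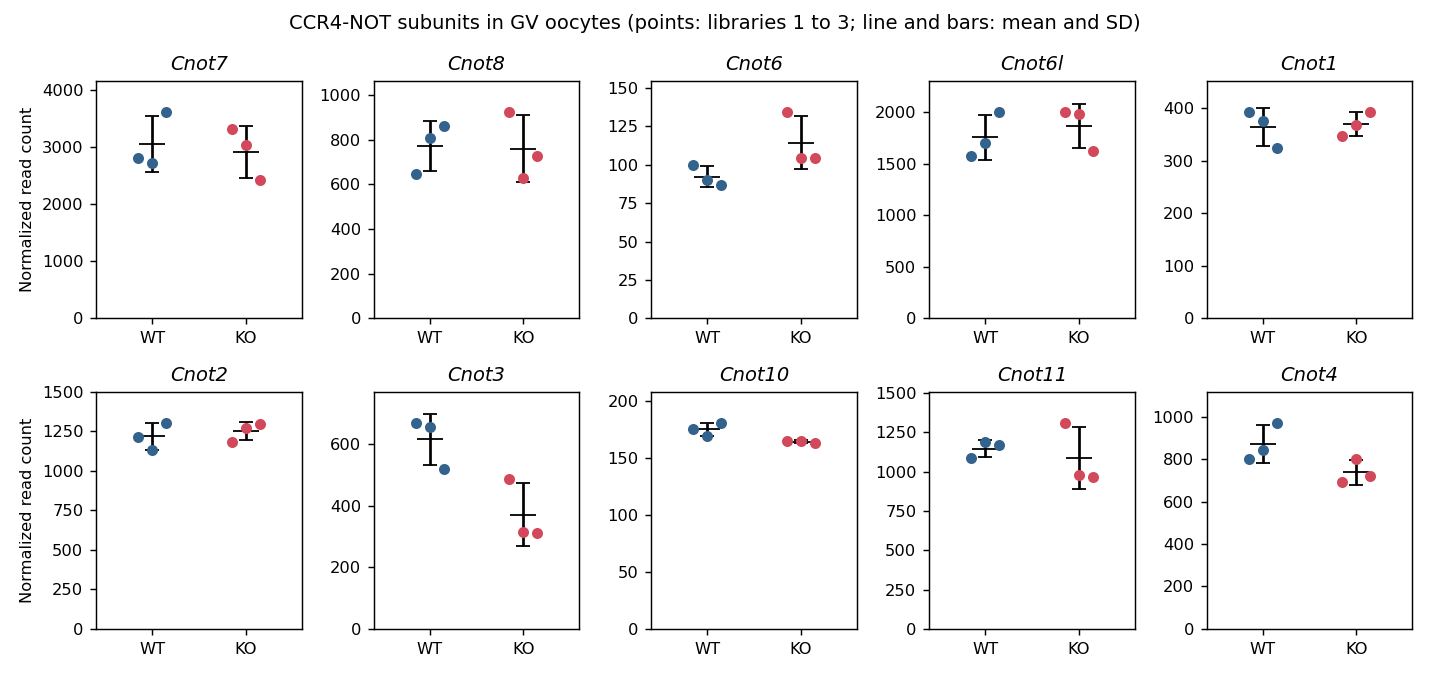
Normalized read count (linear axis from 0) of the 10 subunits in the 3 WT and 3 KO libraries, with the mean as a line and the SD as bars. The KO points of Cnot3, at 311 to 488, all lie below its WT points, at 521 to 669.8, with KO replicate 1 close to the WT range. Most other panels overlap.

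Cnot3 encodes the NOT-module subunit that, with CNOT2, closes the C-terminal end of the complex. The gene (ENSMUSG00000035632.16) lies on chromosome 7 from 3645268 to 3661109 on the plus strand of GRCm38. Its normalized counts were 669.8, 657 and 521 in WT, replicates in order, against 488, 314 and 311 in KO, from 297 to 706 reads a library. All KO values were below all WT values, and KO replicate 1 was the nearest to the WT range. The means were 616 ± 82.5 in WT and 371 ± 102 in KO (± SD over 3 libraries per group), a ratio on the log2(count + 1) scale of 0.593 with a 95% interval of 0.466 to 0.756. On the log2 scale the change was -0.75, with an SE of 0.17 and an adjusted p of 0.0216 by limma, and the adjusted p was 0.0229 by edgeR and 0.00243 by DESeq2. In such pools less of an mRNA per oocyte and fewer contributing cells cannot be told apart. The call was lost in most fits without 1 library. The adjusted p was 0.0861, 0.10004 and 0.0513 without WT replicate 1, 2 and 3, and 0.000563, 0.0835 and 0.0726 without KO replicate 1, 2 and 3, so the call held in 1 of 6 such fits. The direction held in all 6, with log2 fold changes from -0.97 to -0.64.

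**Figure D2:**
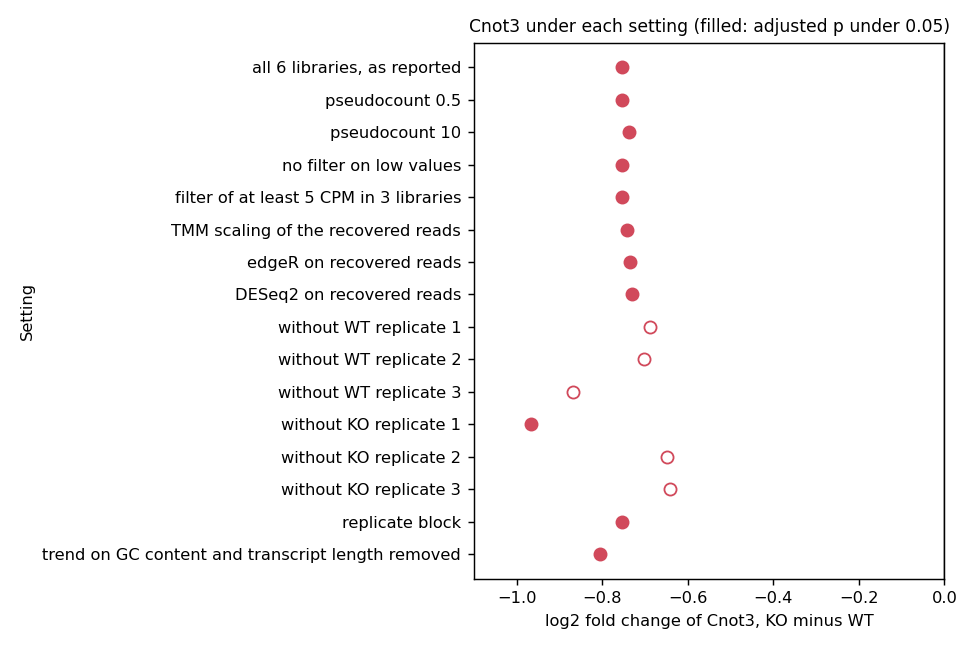
Log2 fold change of Cnot3, KO minus WT (x axis, with 0 at the right edge), under each setting (y axis). Filled points have an adjusted p under 0.05 and open points do not. The 5 open points are fits with 1 library left out, and all 16 points lie between -0.97 and -0.64.

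Cnot3 overlaps Leng1 on the other strand, and the library kit, as the labels describe it, keeps no strand. The overlap covers 433 exon bases, or 6.07% of the exon bases of Cnot3. Leng1 itself had 149, 265 and 194 normalized counts in WT and 224, 172 and 199.6 in KO, with a log2 fold change of 0.00 (SE 0.19, limma adjusted p = 0.996). Its values overlapped between the groups. The microRNA gene Mir3572 lies within Cnot3 on the same strand and shares 86 exon bases. None of the 75-base windows of Cnot3 matched another gene.

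The promoter window of Cnot3 in RefSeq (GRCm38.p6, chr7:3645019-3645318, plus strand), 250 bases before to 50 after the gene's start, is shown because Cnot3 is the subunit that changed. Capitals mark the letters CCAAT and GGGCGG, each searched on both strands.
Cnot3 promoter: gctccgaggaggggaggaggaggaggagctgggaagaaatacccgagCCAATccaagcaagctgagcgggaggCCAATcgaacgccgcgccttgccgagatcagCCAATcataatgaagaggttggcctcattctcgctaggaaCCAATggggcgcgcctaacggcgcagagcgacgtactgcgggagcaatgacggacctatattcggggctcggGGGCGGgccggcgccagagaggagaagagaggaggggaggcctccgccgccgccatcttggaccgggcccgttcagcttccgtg
The window holds CCAAT 4 times, all on the plus strand, and GGGCGG 1 time, and no base belongs to both. CCAAT is the core of the element that the factor NF-Y binds and GGGCGG that of Sp1 sites. Windows with RefSeq entries were found for 8 of the 10 subunits, 14 windows in all. CCAAT was in 2 of the 14, those of Cnot3 and Cnot6, and in 37.4% of all 32851 windows. GGGCGG was in 11 of the 14 and in 35.7% of all windows. CANNTG was in 6 of the 14 and in 72.3% of all, and TATAAA was in none of the 14 and in 13.6% of all. Windows of Cnot6l and of Cnot8 overlap among themselves, so the same match can count more than once. The GC content of the Cnot3 window was 64.3%, against a median of 52.7% over all windows. These are matches of letters and say nothing of binding.

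The genes whose pattern over the 6 libraries was most like that of Cnot3 were D10Jhu81e, Fbxl6 and Fam46b. Likeness was the root mean square difference of log2 values, each centred on the gene's own mean, over the 7077 other genes with a mean of at least 100. It was 0.0910, 0.124 and 0.133 for these 3 genes, against a median of 0.467. D10Jhu81e had 232, 228 and 184 normalized counts in WT and 184, 96.1 and 113 in KO. The log2 fold changes were -0.75 for D10Jhu81e, -0.61 for Fbxl6 and -0.60 for Fam46b. These values follow from the choice of the genes by their likeness to Cnot3 over the same libraries and are given as a description.

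Cnot2, the partner of CNOT3 in the NOT module, did not pass the test. It lies on chromosome 10 (116485161 to 116581511, minus strand) and had 1217, 1133 and 1306 normalized counts in WT and 1186, 1271 and 1297 in KO. The KO values all lay within the WT range. Its log2 fold change was 0.04 (95% interval -0.18 to 0.26, limma adjusted p = 0.890), so the interval ends well above the estimate for Cnot3. Exons of Cnot2 share 232 bases with 5330438D12Rik on the other strand, a gene with a mean of 22.9 normalized counts in WT and 10.97 in KO.

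The scaffold gene Cnot1 (chromosome 8, 95719451 to 95807464, minus strand) had 393, 377 and 324 normalized counts in WT and 348, 369 and 393 in KO. The groups overlapped almost entirely, at 364 ± 35.8 and 369.8 ± 22.7 (± SD over 3 libraries per group). The log2 fold change was 0.02 (SE 0.13, 95% interval -0.25 to 0.30, limma adjusted p = 0.949).

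The CAF1-type nucleases differed in level from each other and not detectably between the groups. Cnot7 (chromosome 8, 40492540 to 40515847, minus strand) had 2809, 2729 and 3622 normalized counts in WT and 3315, 3039.6 and 2420 in KO, the highest counts of the 10 subunits. The highest library was WT replicate 3 and the lowest KO replicate 3, with the others between them. The log2 fold change of Cnot7 was -0.06 (95% interval -0.34 to 0.22, limma adjusted p = 0.858). Cnot8 (chromosome 11, 58104153 to 58118594, plus strand) had 647, 809.9 and 862 in WT and 924, 629.7 and 725 in KO. Its lowest and its highest library were both KO, and its log2 fold change was -0.03 (95% interval -0.34 to 0.28, limma adjusted p = 0.938).

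The ratio of Cnot7 to Cnot8 counts was 4.34, 3.37 and 4.20 in WT and 3.59, 4.83 and 3.34 in KO. Per kilobase of exon, which puts the genes on a common scale, Cnot7 exceeded Cnot8 by 1.97, 1.53 and 1.90 times in WT and by 1.62, 2.19 and 1.51 times in KO. Cnot7 thus had the higher counts of the pair, per kilobase too, in all 6 libraries. The log2 ratio differed by -0.03 between the groups, KO minus WT (1.98 ± 0.199 in WT and 1.95 ± 0.282 in KO, ± SD over 3 libraries per group). A two-sided exact permutation test gave p = 0.90, where the smallest p that 3 against 3 libraries allow is 0.1.

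Of the CCR4-type nucleases, Cnot6l had by far the higher counts. Cnot6l (chromosome 5, 96070333 to 96164171, minus strand) had 1569, 1695 and 1996 normalized counts in WT and 2001, 1979 and 1622 in KO. The groups overlapped, and the log2 fold change was 0.09 (SE 0.12, 95% interval -0.16 to 0.34, limma adjusted p = 0.755). Cnot6 (chromosome 11, 49671503 to 49712723, minus strand), the lowest of the 10, had 99.8, 90.2 and 86.8 in WT and 134, 105 and 104 in KO, from 90 to 128 reads a library. All KO values of Cnot6 were above all WT values, with KO replicate 1 the farthest. Its log2 fold change of 0.30 did not pass the test (SE 0.18, 95% interval -0.09 to 0.69, limma adjusted p = 0.420).

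Per kilobase of exon, Cnot6l exceeded Cnot6 by 10.1, 12.05 and 14.7 times in WT and by 9.54, 12.1 and 9.97 times in KO. The log2 ratio of counts was 4.23 ± 0.273 in WT and 4.02 ± 0.183 in KO (± SD over 3 libraries per group), with overlapping groups. The difference of -0.21 gave p = 0.30 in the two-sided exact permutation test, and 0.60 with Benjamini-Hochberg adjustment over the 2 paralog ratios tested, where the other stayed at 0.90.

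**Figure D3:**
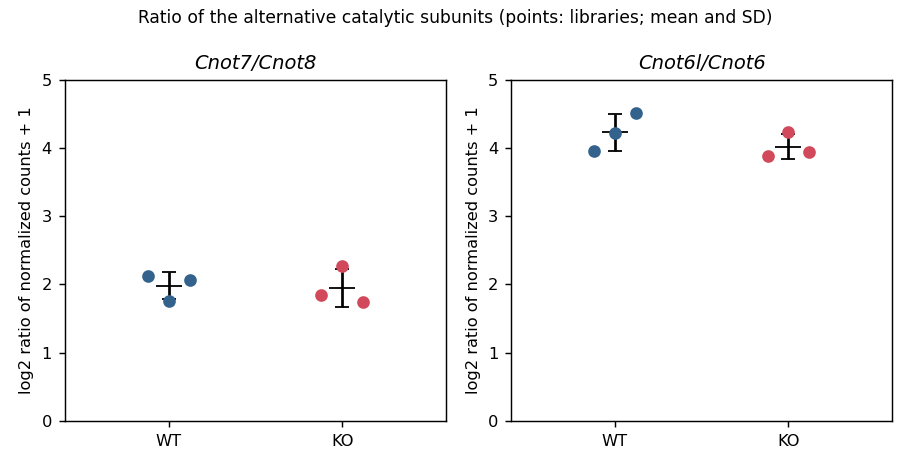
Log2 ratio of normalized counts + 1 (y axis from 0) of Cnot7 to Cnot8 and of Cnot6l to Cnot6 in the 3 WT and 3 KO libraries, with mean and SD. Both ratios stay above 0 in all 6 libraries, near 2 and 4, and the groups overlap in both.

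The module at the N-terminal end of CNOT1 is made of CNOT10 and CNOT11. Cnot10 (chromosome 9, 114585878 to 114640184, minus strand) had 175, 169 and 181 normalized counts in WT and 165, 165 and 163 in KO. The groups did not overlap, but the gap was small, and the log2 fold change of -0.09 did not pass the test (95% interval -0.40 to 0.21, limma adjusted p = 0.798). Cnot11 (chromosome 1, 39534992 to 39546889, plus strand) had 1086, 1186 and 1167 in WT and 1311, 978 and 963 in KO. KO replicate 1 was above all WT libraries and the other 2 KO libraries were below them. Its log2 fold change, -0.09, did not pass (limma adjusted p = 0.760), and it was -0.24 without KO replicate 1 (adjusted p = 0.192).

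Cnot4, the ubiquitin ligase, lies on chromosome 6 (35022065 to 35133724, minus strand). It had 799.6, 842 and 971 normalized counts in WT and 690.1, 801 and 720.3 in KO, and the groups overlapped by the narrow margin between KO replicate 2 and WT replicate 1. The log2 fold change came to -0.24 (95% interval -0.48 to 0.01, limma adjusted p = 0.294). After correction of each library for GC content and for length of transcripts, the log2 fold change of Cnot4 was -0.47 and its adjusted p 0.0366. The corrected fit covered the 17267 genes with a known GC content and length, against 18762 without correction. The log2 fold change is estimated for each gene on its own, so its shift came with the correction and not with the smaller gene set. Without correction the unadjusted limma p of Cnot4 was 0.0563, and adjustment cannot lower a p. With that same p, a smaller gene set would not have brought the adjusted p under 0.05. The fit without correction on the smaller gene set was not run. Rises made up 45.9% of the calls of the corrected fit and 57.1% of those without correction.

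Cnot9 was not among the 10 genes but encodes the remaining core subunit, which binds tryptophan-containing motifs of partners such as the TNRC6 proteins. It had 336, 349 and 319 normalized counts in WT and 374, 427 and 402 in KO (chromosome 1, 74506058 to 74530842). All KO values were above all WT values, but the log2 fold change of 0.26 did not pass the test (SE 0.12, 95% interval -0.00075 to 0.52, limma adjusted p = 0.279). The neighbouring Usp37, on the other strand, shares 134 of the exon bases of Cnot9 and 2.34% of its windows.

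Per kilobase of exon the subunits spanned a wide range of levels in WT oocytes. Cnot7 stood highest, at 525 ± 84.8 normalized reads per kb. Cnot11 (327 ± 15.2), Cnot2 (299 ± 21.2) and Cnot8 (293 ± 42.7) followed, with overlapping ranges. Cnot6l (170.0 ± 21.3) came next and was separate from its neighbours in the order. Cnot4 (89.1 ± 9.15), Cnot9 (87.4 ± 3.96) and Cnot3 (86.4 ± 11.6) overlapped each other. Cnot10 (26.5 ± 0.887), the scaffold Cnot1 (21.2 ± 2.09) and Cnot6 (13.96 ± 1.02) were lowest and did not overlap (± SD over 3 libraries per group). The lengths were those of all annotated exons of a gene in GENCODE M21, and transcripts of oocytes may differ from them. With the longest transcript of each gene in their place, Cnot7 remained first and Cnot6 last, Cnot2 and Cnot8 came before Cnot11, Cnot4 before Cnot6l, Cnot3 before Cnot9, and Cnot1 before Cnot10.

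**Figure D4:**
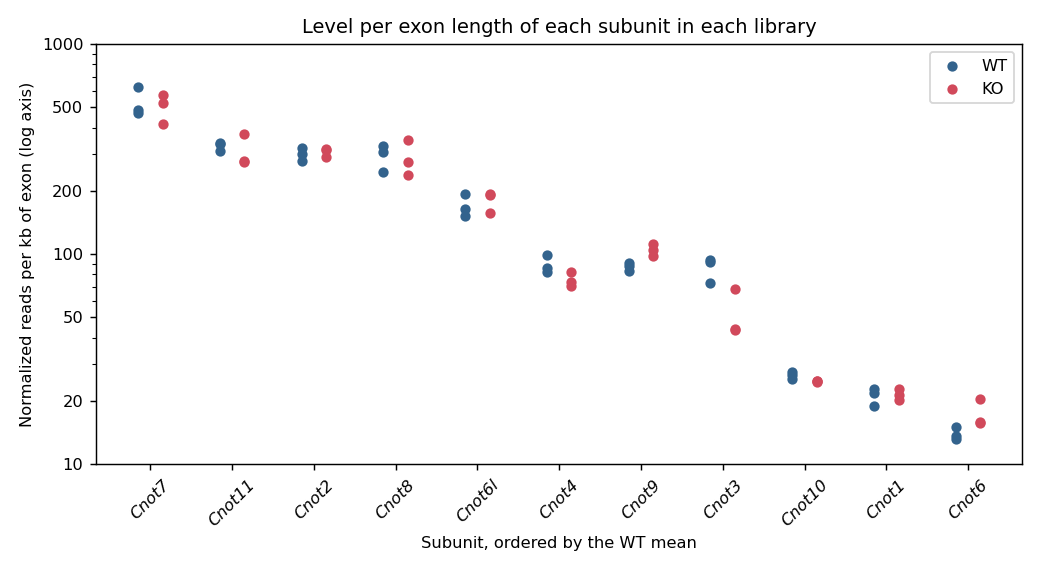
Normalized reads per kilobase of exon (log axis) of each subunit and Cnot9 in each library, ordered by the WT mean. Cnot7 is highest at 416 to 622 and Cnot6 lowest at 13.1 to 20.3. The KO points of Cnot3 (43.6 to 68.5) all fall below its WT points (73.1 to 94.0), KO replicate 1 by a narrow margin.

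Summed over the 10 subunits, the level was 1728, 1796 and 2028 normalized reads per kb in WT and 1983, 1732 and 1621 in KO. The groups overlapped, at 1850 ± 157 and 1779 ± 186 (± SD over 3 libraries per group). Cnot3 made up 4.72% ± 0.982 of this sum in WT and 2.90% ± 0.489 in KO, whereas Cnot7 made up 28.2% ± 2.30 in each group.

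Transcripts of proteins that bring the complex to mRNAs, or act beside it, were measured in the same libraries. Among 6 BTG and TOB adaptors, Tob1 rose and none fell, where 1.87% of all genes tested were called as higher. Tob1, whose protein binds the CAF1-type nucleases, had 38.8, 28.8 and 31.4 normalized counts in WT and 54.6, 64.4 and 91.7 in KO. All KO values lay above all WT values. It rose by 1.04 (SE 0.26, limma adjusted p = 0.0389), and by 0.84 to 1.21 in the fits without 1 library, of which only that without KO replicate 1 kept the call (adjusted p 0.0174, and 0.0572 to 0.139 in the other 5). A pseudocount of 10 also ended it (adjusted p = 0.0512). Btg4, the oocyte adaptor named above, was chosen after its values were seen. It had 22582, 23889 and 25957 in WT and 24947, 23099 and 22134 in KO, higher counts than any subunit. Its groups overlapped (log2 fold change -0.04, 95% interval -0.27 to 0.18, limma adjusted p = 0.875).

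Among 25 RNA-binding recruiters and silencing partners, 23 were tested and 2 rose, Pum2 and Ythdf1, with none lower, where 1.87% of all genes were called as higher. The list median was 0.18, against -0.01 over all genes. Pum2, a Pumilio protein that binds sites in the untranslated ends of mRNAs, had 202, 255 and 224 normalized counts in WT and 451, 312 and 324 in KO. It rose by 0.66 (SE 0.16, limma adjusted p = 0.0333), and its groups did not overlap. Ythdf1, a reader of N6-methyladenosine, had 52.1, 57.7 and 60.02 in WT and 103, 94.0 and 98.9 in KO, with a narrow spread in each group. It rose by 0.79 (SE 0.19, limma adjusted p = 0.0367). Leaving out 1 library ended the call of Pum2 in 4 of 6 fits (adjusted p 0.0428 to 0.124) and that of Ythdf1 in all 6 (0.0508 to 0.113), and the correction for GC content and length ended that of Pum2 (0.0653).

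Of 10 poly(A)-binding proteins and poly(A) polymerases, 1 fell, where 1.41% of all genes were called as lower. Pabpn1l encodes a poly(A)-binding protein of oocytes that works with BTG4 in the decay of maternal mRNAs in the mouse. It had 3199, 3643 and 3719 normalized counts in WT and 3324, 1530 and 1730 in KO. KO replicate 1 lay within the WT range and the other 2 KO libraries far below it. Pabpn1l fell by 0.77 (SE 0.20, limma adjusted p = 0.0458), but edgeR (adjusted p = 0.0657) and DESeq2 (0.303) did not call it. Nor did it pass in 5 of the 6 fits without 1 library (adjusted p 0.0796 to 0.169), at pseudocounts of 0.5 (0.0529) and 10 (0.0533) or after the correction for GC content and length (0.065). Without KO replicate 1 it passed, with a log2 fold change of -1.11.

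Of 9 other deadenylases none passed the limma test, with 2 at an unadjusted p under 0.05 and a list median of 0.24 (-0.01 over all genes), and neither edgeR nor DESeq2 called any of the 8 with a value there. The smallest p belonged to Noct, the circadian deadenylase-like protein nocturnin, with 694, 749.5 and 749.8 normalized counts in WT and 1193, 873 and 835 in KO (log2 fold change 0.38, limma adjusted p = 0.124). Pan3, the subunit that brings the PAN2 nuclease to poly(A), followed with 105, 128 and 141 in WT and 184, 164 and 147 in KO (0.40, adjusted p = 0.220). In both genes all KO values lay above all WT values.

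**Figure D5:**
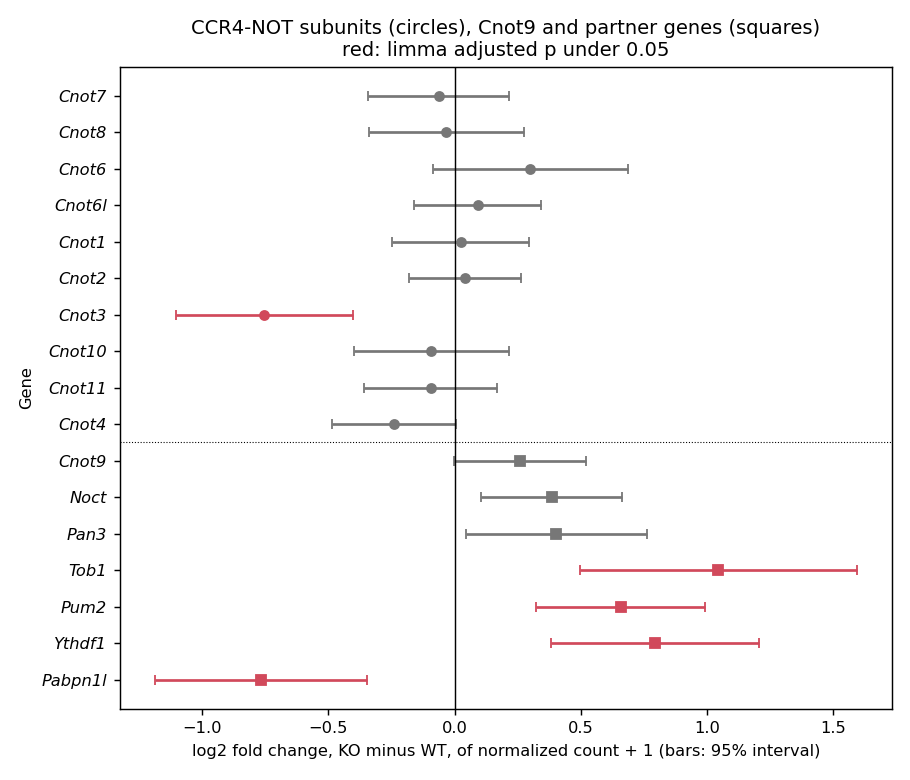
Log2 fold change, KO minus WT, with its 95% interval (x axis) for the 10 subunits (circles), Cnot9 and the partner genes named in the text (squares). Red marks an adjusted p under 0.05. Cnot3 at -0.75 is the red subunit, while Tob1, Pum2 and Ythdf1 lie above 0 and Pabpn1l below.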

How the data were processed

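Per the labels' protocols, cDNA was made from 5 oocytes per library with Smart-Seq2 and sequenced after Nextera XT preparation as 75-base read pairs. Tools listed in the submitters' processing notes are STAR, cutadapt, FastQC, DESeq2 and DESeq, with mm10 and GRCm38 as builds, and their versions were not given in the sources used. The deposited signal values are normalized read counts per gene, and Partek and DESeq2 are named per the file headers. Dividing by the value of 1 read (0.899 to 1.11) gave whole reads for 100% of values above 0 within 0.1 reads.

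Groups and replicate numbers came from the sample titles. Genes that reached a value of 1 in at least 3 libraries were compared as log2(value + 1) with limma-trend (limma 3.58.1, R 4.3.3), without covariates. A fold change on this scale understates that of low genes. Alternatives used edgeR 4.0.16, which called 789 genes, DESeq2 1.42.0, other pseudocounts and filters, TMM scaling, GC and length correction, a replicate block and single libraries left out. The limma fit was tested on simulated data.

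All members were named. Each partner list contributed up to 4 genes that passed, or the 2 of smallest p. Members and lists were chosen with earlier results of these data known. Windows were aligned with minimap2 2.31-r1302, paralogs with Biopython 1.88. A count of 0 allows up to 3 reads (0.375 to 0.465 CPM, counting error only). Coordinates are those of GENCODE M21 (GRCm38).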

Additional observations from a re-analysis of the deposited data

How the results depend on the processing

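The fall of Cnot3 kept its direction under all 15 alternatives and its call under 10, and the 5 exceptions are the fits without 1 library given above. The number of subunits called was 0 to 1 in the fits without 1 library, and 2, with Cnot4 added, after correction for GC content and length. In that fit Cnot1 (-0.066), Cnot2 (-0.042) and Cnot6l (-0.11) changed sign without passing the test. Without 1 library the log2 fold changes ran from -0.058 to 0.080 for Cnot1, -0.011 to 0.091 for Cnot2, -0.16 to 0.068 for Cnot7 and -0.18 to 0.093 for Cnot8, and the Cnot7 to Cnot8 log2 ratio difference from -0.19 to 0.076. Over all genes, 351 rose and 264 fell. Without 1 library there were 71 to 459 rises and 41 to 430 falls, and DESeq2 called 401 falls. Deviations of same-numbered libraries from their group means had correlations across genes of -0.14, -0.07 and -0.08. Those of differently numbered libraries ran from -0.12 to 0.18. The labels do not say whether the numbers pair libraries, and these values cannot decide it. The replicate block gave 246 rises and 175 falls and kept Cnot3 (adjusted p = 0.0114) but not Tob1 (0.0598), Pum2 (0.0507) or Ythdf1 (0.0694). Its paralog ratio differences, -0.03 and -0.21, equal those without it by construction, since each group has 3 libraries, and so are no check. The cause of these changes was not tested. Depth limits Cnot6 most among the subunits, at 90 to 128 reads a library, and Mfn2 rests on 5 reads in each KO library.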

Other observations

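Some partners that the naming rule did not pick, and that were chosen here after their values were seen, had groups that did not overlap. Transcripts of all 3 YTHDF readers were higher in each KO library than in each WT library. Groups did not overlap in 7 of the 23 recruiters tested (5 higher), against 23.2% of all genes (11.5% higher). Ythdf2, which takes part in clearing maternal transcripts in the mouse oocyte, went from 436 to 624 normalized counts on average (log2 fold change 0.52, adjusted p = 0.0678 by limma, 0.0587 by edgeR and 0.0278 by DESeq2), and Ythdf3 from 538 to 687 (0.33, adjusted p = 0.200). The genes of the TNRC6 proteins, which link Argonaute to the deadenylase complex, did not pass the test. Tnrc6a had a log2 fold change of 0.78 and Tnrc6b and Tnrc6c -0.30 and -0.46 (limma adjusted p 0.191, 0.263 and 0.122). The differences among these 3 genes were not tested. Btg1, a further adaptor of the CAF1-type nucleases, had 102, 109 and 120.0 in WT and 203, 144 and 154 in KO (0.58, adjusted p = 0.0804).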
